A study of Mus musculus with 4 samples.

Results

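The heterogeneous nuclear ribonucleoproteins (hnRNPs) are abundant nuclear proteins that coat nascent transcripts and steer their splicing, stability and export. Expression was examined for 10 genes of RNA-binding proteins, 9 of them hnRNPs and the last Elavl1, in single mouse embryos labelled Mettl14-/- or Mettl14+/+. The members were Hnrnpa2b1, Hnrnpc, Hnrnpa1, Hnrnpk, Hnrnpl, Hnrnpu, Hnrnpd, Hnrnpm, Rbmx and Elavl1, a list set by name and matched through Ensembl gene identifiers. All 10 were found among the 47885 rows of the count table and all 10 passed the filter on low counts, as did 15563 genes in all. They lie on 10 different chromosomes.

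Mettl14 binds RNA for the Mettl3 methyltransferase, and together they place N6-methyladenosine (m6A) on nascent transcripts. The methyl group weakens the pairing of an adenosine with a uridine, so that a hairpin opens and a binding site for a protein becomes reachable. In human cells this m6A switch was described for HNRNPC, which binds runs of uridine, and for HNRNPG, the product of RBMX. HNRNPA2B1 was proposed in human cells to read m6A in nuclear RNA and to pass primary microRNAs to the Microprocessor. In mouse embryonic stem cells ELAVL1 was reported to bind transcripts more when m6A is lost.

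The KO group was 2 embryos labelled Mettl14-/- and the WT group 2 embryos labelled Mettl14+/+, all of the C57BL/6 strain and at embryonic day 5.5, the egg cylinder stage, in which visceral endoderm surrounds the epiblast and the extraembryonic ectoderm. Each library was 1 whole embryo, amplified from polyadenylated RNA with a Smart-Seq v4 kit. Per the labels' protocols the genotype was read after sequencing by qPCR for Mettl14 on the same amplified cDNA. Embryos that expressed the gene were taken as controls, which does not separate homozygous from heterozygous embryos. What was deleted from the gene was not given in the sources used here.

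Mettl14 had 4.63 and 8.04 CPM (counts scaled to a common library size) in the KO embryos, against 34.0 and 31.6 CPM in the WT embryos. Since the embryos were classed by this gene, its level is no independent check. Total counts were 20248636 and 28698541 in the KO libraries and 16108062 and 20121289 in the WT libraries. Genes detected numbered 21250 and 18346 in the KO libraries and 21488 and 19603 in the WT libraries. KO replicate 2 thus had the most counts and the fewest genes detected. It also stood apart from the other 3 libraries on the first principal component. The part of this library difference in the values below was not tested. The markers of the tissues an egg cylinder holds were present throughout, though not in equal amounts. Markers of the epiblast were detected in every library (6 of 6, summed to 1198 and 2030 CPM in KO and 1228 and 1566 CPM in WT), as were those of the extraembryonic ectoderm (6 of 6, 984 and 638 CPM in KO and 596 and 681 CPM in WT). Visceral endoderm markers summed to 245 and 312 CPM in KO and 648 and 1731 CPM in WT, with 5 of 6 lower in KO without overlap. Trophoblast giant cell markers summed to 1154 and 601 CPM in KO and 158 and 265 CPM in WT, with 4 of 5 higher in KO without overlap and Prl2c2 at 0 in all. The marker sums of visceral endoderm and trophoblast giant cells thus lay on opposite sides in KO. Over all genes tested, 18.8% were lower and 19.4% higher in KO without overlap. Parietal endoderm markers summed to 491 and 425 CPM in KO and 292 and 813 CPM in WT. Maternal decidua markers reached 2.55 and 1.18 CPM in KO and 15.2 and 23.3 CPM in WT, with Hoxa11 at 0 in all, and blood markers 3.73 and 4.92 CPM in KO and 3.24 and 2.89 CPM in WT. Decidua sums were thus also lower in KO and blood sums higher, both at low levels. The part of this tissue makeup in the values below was not tested. In whole embryos, fewer cells of a type and less RNA per cell cannot be told apart.

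Together the 10 genes made up 0.686% and 0.726% of all counts in the KO embryos, against 0.806% and 0.843% in the WT embryos. Both KO embryos thus lay below both WT embryos. This share was not tested, since with 2 embryos per group an exact permutation test cannot give a two-sided p under 0.333.

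Levels were compared between genes only per length, as TPM (a share of all transcripts, from counts divided by the summed exon length of the gene). By this measure Hnrnpa1 led in every embryo, with 1233 and 1519 TPM in KO and 1775 and 2274 TPM in WT. It ranked 86th of all genes by mean TPM. The order depends on the length used. Summed exons were 3153 bases for Hnrnpa1 and 6584 for Hnrnpa2b1. Their messenger RNAs with the longest coding sequence were 1918 and 1728 bases. The lead over Hnrnpa2b1 may therefore not hold with messenger RNA lengths. Hnrnpa2b1, Hnrnpc and Hnrnpk followed with means over the 4 embryos of 779, 629 and 617 TPM, and their ranges overlapped. A step down came Hnrnpm, Hnrnpd and Elavl1 with means of 106, 103 and 94.7 TPM and overlapping ranges, then Hnrnpu and Hnrnpl with 60.5 and 56.9 TPM, whose ranges overlapped each other and that of Hnrnpd. Rbmx was lowest in every embryo, with 7.35 and 2.45 TPM in KO and 21.0 and 27.1 TPM in WT, and ranked 5736th. Its highest embryo exceeded its lowest by 11.1-fold, while for the other 9 genes this ratio lay between 1.14 for Hnrnpm and 2.38 for Hnrnpd.

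**Figure D1:**
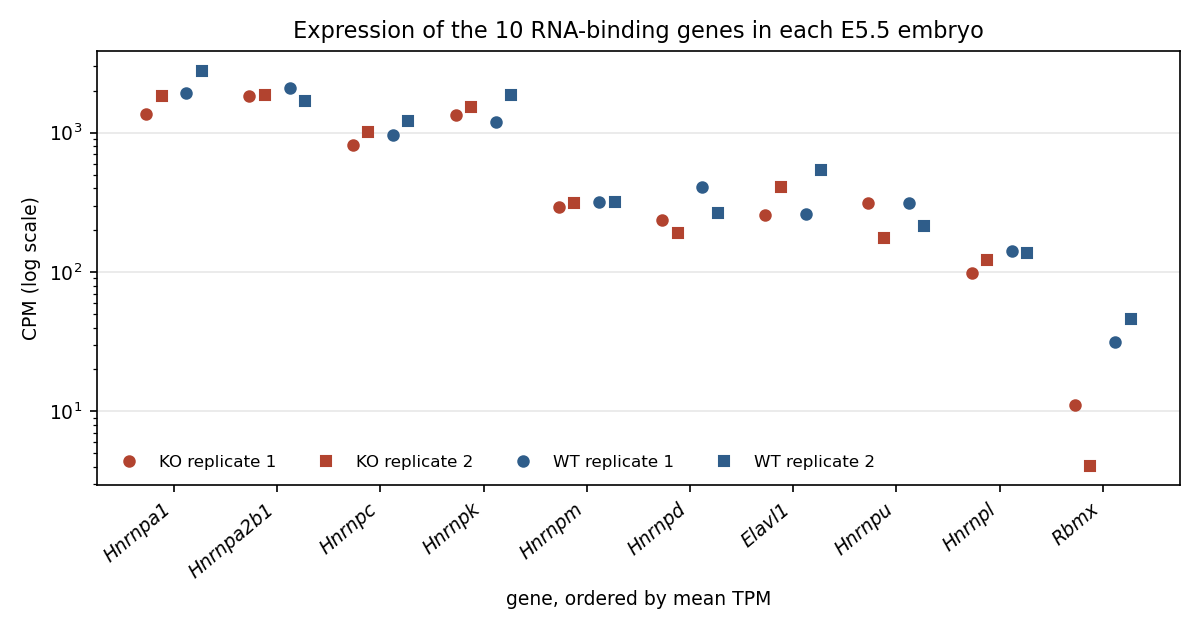
CPM (log axis) of the 10 genes in each embryo, ordered from left to right by mean TPM, with KO embryos in red to the left of WT embryos in blue (circles replicate 1, squares replicate 2). Rbmx, at 11.2 and 4.09 CPM in KO and 31.3 and 45.8 CPM in WT, is the lowest gene and the one whose groups lie farthest apart.

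Rbmx, whose product hnRNP G binds RNA through an RNA recognition motif and a repeat rich in arginine and glycine, showed the widest gap between the groups. The KO embryos had 237 and 114 counts, or 11.2 and 4.09 CPM, against 531 and 857 counts, or 31.3 and 45.8 CPM, in the WT embryos. The KO values lay below the WT values without overlap, and on the log2 scale the KO embryos differed from each other more than the WT embryos did. The log2 fold change (KO over WT) was -2.34 (SE 0.55, 95% interval -3.61 to -1.06, n = 2 per group), with an unadjusted edgeR p of 0.0028 and an edgeR adjusted p of 0.362. By DESeq2 the gene passed at -2.35 with an adjusted p of 0.00213, and by limma-voom it did not, at an adjusted p of 0.283. With no filter on low counts it passed by edgeR at an adjusted p of 0.000569. It did not pass by edgeR with RLE scaling (adjusted p of 0.373), library totals (0.368), at least 50 counts in 2 libraries (0.218) or the replicate block (0.0924). The log2 fold change was -3.16 without KO replicate 1, which leaves only KO replicate 2, the embryo with the lowest Rbmx count. It was -1.78 without KO replicate 2, -2.6 without WT replicate 1 and -2.03 without WT replicate 2.

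Across all genes edgeR called 0% of 15563 genes higher and 0% lower in KO at an adjusted p of 0.05, and the smallest adjusted p was 0.245. At an unadjusted p under 0.05, 4.74% were higher (738 genes) and 3.08% lower (479), and Rbmx was the 1 member in these counts. DESeq2 called 0.906% higher (141) and 0.572% lower (89), again with Rbmx as the 1 member, and limma-voom called 0. Leaving out 1 library gave 14 to 133 genes higher and 1 to 209 lower by edgeR, the most without KO replicate 1.

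Rbmx has a close relative that bears on its count. Rbmxl1 (ENSMUSG00000037070, chromosome 8, 78505269 to 78508898 on mm10, minus strand) is a retrogene, a copy made from spliced Rbmx messenger RNA, with its own open reading frame. Rbmx itself (ENSMUSG00000031134) lies on chromosome X, 57383530 to 57393036, minus strand. Their coding sequences were 90.3% identical. The first stretch of 150 bases, the length of 1 read, that lay within 1 coding exon of each gene and aligned without a gap is shown for both, 5′ to 3′ on the minus strand, with the 17 letters that differ in capitals. It is coding bases 389 to 538 of Rbmx (chrX:57389422-57389571 in exon 5), aligned with chr8:78506184-78506333 in exon 2 of Rbmxl1.
Rbmx: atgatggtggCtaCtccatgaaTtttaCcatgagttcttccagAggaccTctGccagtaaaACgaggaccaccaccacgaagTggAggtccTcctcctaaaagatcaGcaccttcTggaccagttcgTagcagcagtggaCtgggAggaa
Rbmxl1: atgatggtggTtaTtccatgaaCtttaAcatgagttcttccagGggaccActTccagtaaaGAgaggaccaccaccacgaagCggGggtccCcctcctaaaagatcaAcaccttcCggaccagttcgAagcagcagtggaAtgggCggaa

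Over 865 such ungapped stretches the genes differed at 6 to 21 positions, with a median of 16, and none of the 1024 read-length stretches of the Rbmx coding sequence occurred letter for letter in a transcript of another annotated gene. How the authors' counting treated reads that fit both genes with mismatches was not given in the sources used here, so the split of counts between these genes is uncertain.

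Rbmxl1 had 338 and 420 CPM in the KO embryos, against 215 and 263 CPM in the WT embryos. The direction was thus opposite to that of Rbmx, also without overlap between the groups. Its log2 fold change was 0.67 (SE 0.29, 95% interval -0.01 to 1.34), with an unadjusted edgeR p of 0.0516 and an adjusted p of 0.643. Per length of summed exons Rbmxl1 exceeded Rbmx by 77.1-fold and 262-fold in the KO embryos and by 17.5-fold and 14.7-fold in the WT embryos. These folds would be smaller with messenger RNA lengths. Summed exons of Rbmx were 4330 bases and its messenger RNA 2108, where both were 1695 for Rbmxl1. The uncertain split of counts bears on the folds too.

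Of the counts of both genes together, Rbmx held 3.21% (95% Wilson interval 2.83 to 3.63) and 0.964% (0.803 to 1.16) in the KO embryos, against 12.7% (11.7 to 13.8) and 14.8% (13.9 to 15.8) in the WT embryos. Such intervals take every read as an independent draw. PCR copies 1 molecule into many reads, so the intervals are too narrow even for counting error. They also leave out the spread between embryos. The log2 ratio of Rbmx to Rbmxl1 counts averaged -5.80 ± 1.25 in KO and -2.65 ± 0.18 in WT (SD, n = 2 each), and the exact two-sided permutation p of 0.333 is the smallest this design can give. Added together, both genes had 349 and 424 CPM in KO and 246 and 309 CPM in WT. Fitted as 1 gene they had a log2 fold change of 0.48 with an edgeR adjusted p of 0.776, the opposite sign to Rbmx alone. Neither sign passed in the main edgeR test.

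**Figure D2:**
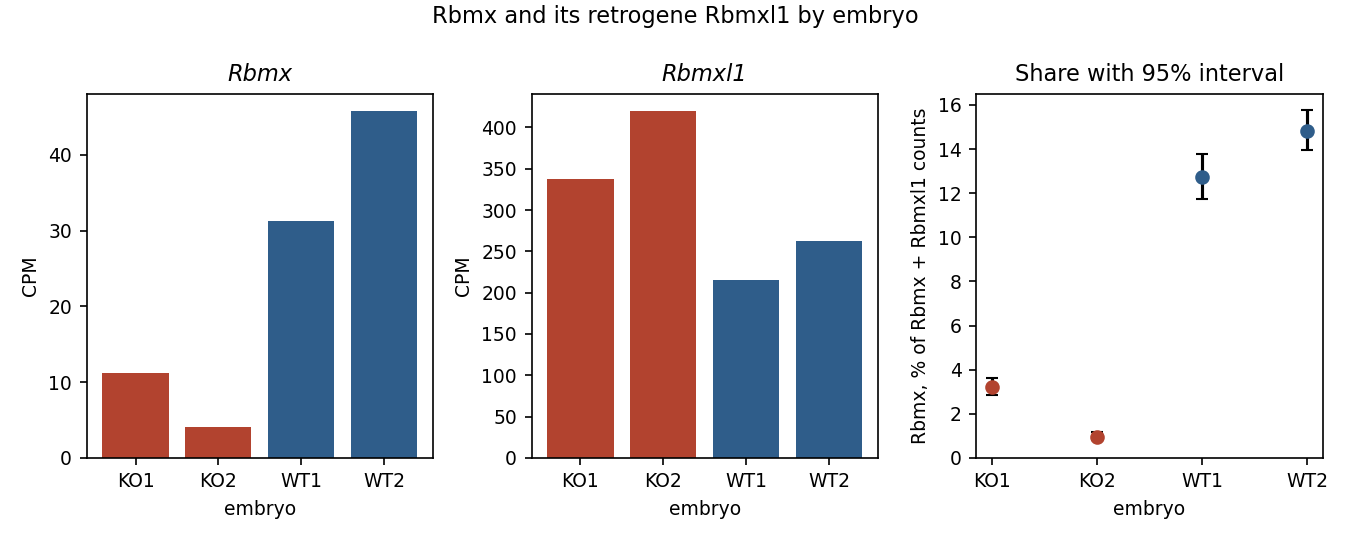
Rbmx (left) and Rbmxl1 (middle) in CPM per embryo, each axis from 0, and the percentage of their summed counts that fell on Rbmx with its 95% Wilson interval (right), KO embryos in red and WT embryos in blue. Rbmx is lower and Rbmxl1 higher in both KO embryos, and the share of Rbmx is 0.964% to 3.21% in KO and 12.7% to 14.8% in WT.

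Because Rbmx is X-linked, sex chromosome counts were set beside it. Ddx3y, Eif2s3y and Kdm5d of the Y chromosome had 0 counts in all 4 embryos. Genes of the X chromosome took 4.42% and 4.18% of counts in the KO embryos and 4.17% and 3.86% in the WT embryos. The X-linked noncoding RNA Xist had 69.6 and 6.06 CPM in KO and 202 and 59.8 CPM in WT. The part of X-linked dosage in the Rbmx values was not tested.

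Hnrnpc, which forms tetramers on long nascent transcripts and binds their uridine runs, had 809 and 1019 CPM in the KO embryos, against 965 and 1220 CPM in the WT embryos. The groups overlapped. In the edgeR fit the log2 fold change was -0.26 (SE 0.27, 95% interval -0.88 to 0.37), with an edgeR adjusted p of 0.901. The interval therefore leaves out a log2 change of 1 in either direction, though not changes of smaller size.

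Hnrnpc also has a near-identical copy with counts of its own, the processed pseudogene Gm12696 on chromosome 4. Its first 150 coding bases (chr14:52084206-52084355, minus strand, exon 3) are shown with the matching stretch of the pseudogene (chr4:97522183-97522332, minus strand), where capitals mark the 4 letters that differ.
Hnrnpc: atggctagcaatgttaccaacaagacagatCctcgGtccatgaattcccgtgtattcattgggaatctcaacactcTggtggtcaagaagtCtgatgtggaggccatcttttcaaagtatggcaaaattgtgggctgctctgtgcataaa
Gm12696: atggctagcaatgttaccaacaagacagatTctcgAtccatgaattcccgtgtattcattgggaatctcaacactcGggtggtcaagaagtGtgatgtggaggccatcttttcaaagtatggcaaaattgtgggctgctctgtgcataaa

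Gm12696 had 33.5 and 41.6 CPM in KO and 38.6 and 41.7 CPM in WT, between 3.31% and 3.98% of the summed counts. That share was nearly the same in every embryo, and adding it left the fold change of Hnrnpc at -0.25.

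Hnrnpa2b1, the proposed nuclear m6A reader, had 1846 and 1868 CPM in the KO embryos, against 2100 and 1681 CPM in the WT embryos. Both KO values lay between the WT values. The log2 fold change was -0.03 (SE 0.25), with a 95% interval of -0.60 to 0.54 and an edgeR adjusted p of 0.992. Of the 10 genes it had the value closest to 0. Its 1 annotated near-identical copy had 0 counts in every library.

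Elavl1 encodes HuR, which binds AU-rich elements and stabilises the transcripts that carry them. It had 255 and 409 CPM in the KO embryos, against 262 and 537 CPM in the WT embryos. The groups overlapped, and replicate 2 was the higher embryo in each. This gave a log2 fold change of -0.27 (SE 0.40, 95% interval -1.20 to 0.66, edgeR adjusted p = 0.939), against 0.35 without WT replicate 2 and 0.11 without KO replicate 1.

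Hnrnpd encodes AUF1, another protein of AU-rich elements, best known for speeding the decay of its targets. It had 236 and 192 CPM in the KO embryos, against 407 and 267 CPM in the WT embryos. The groups did not overlap, although the nearest KO and WT embryos lay closer together than the WT embryos did. Its log2 fold change was -0.66 (SE 0.32, 95% interval -1.40 to 0.09), with an edgeR adjusted p of 0.706. In the fits that left out an embryo it lay between -0.92 and -0.31.

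Hnrnpa1, a splicing repressor that competes with SR proteins for exonic sites, had 1366 and 1846 CPM in the KO embryos, against 1927 and 2794 CPM in the WT embryos. The higher KO embryo came close to the lower WT embryo without overlap. The log2 fold change was -0.56 (SE 0.29, 95% interval -1.22 to 0.11, edgeR adjusted p = 0.738).

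Hnrnpa1 also carries the most annotated copies, 15 at 90% identity or more over at least 50% of its coding sequence, 14 of them pseudogenes. Of its 970 read-length coding stretches 68.6% occurred letter for letter in a transcript of another gene. Yet the 12 copies that were rows of the table together took only 0.447% to 0.689% of the summed counts. Most of these went to the pseudogene Gm10052 on chromosome 9, with 125 and 276 counts in KO and 170 and 348 in WT. Whether reads that match Hnrnpa1 and a copy alike were assigned, split or dropped is not known here, so these low shares do not show how many reads were shared. The same holds for Hnrnpk. Adding the copies left the fold change of Hnrnpa1 at -0.56. The ratio of Hnrnpa1 to Hnrnpa2b1 counts, a pair of paralogs, was 0.740 and 0.988 in KO and 0.918 and 1.66 in WT, so the groups overlapped.

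Hnrnpk, which binds cytosine-rich RNA and DNA through KH domains, had 1332 and 1524 CPM in the KO embryos, against 1189 and 1854 CPM in the WT embryos. Both KO values lay between the WT values, and the log2 fold change was -0.09 (SE 0.29, edgeR adjusted p = 0.977). Of its coding stretches 46.3% occurred in transcripts of 2 other genes, but the 1 of its near-identical copies that was a row of the table had 9 and 6 counts in KO and 0 and 2 in WT.

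Hnrnpl, which binds CA repeats and acts in exon choice, had 98.3 and 123 CPM in the KO embryos, against 141 and 136 CPM in the WT embryos. The KO values lay below the WT values without overlap. These values gave a log2 fold change of -0.32 (SE 0.31, 95% interval -1.04 to 0.39, edgeR adjusted p = 0.893).

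Hnrnpm, a binder of GU-rich sites, was the steadiest of the 10. It had 292 and 312 CPM in the KO embryos and 317 and 316 CPM in the WT embryos. The KO embryos were lower without overlap, yet by little, and the log2 fold change was -0.07 (SE 0.27, 95% interval -0.69 to 0.56, edgeR adjusted p = 0.981).

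Hnrnpu, or scaffold attachment factor A, organises chromatin and holds the noncoding RNA Xist to the inactive X chromosome. It had 313 and 177 CPM in the KO embryos, against 313 and 215 CPM in the WT embryos. The replicate 1 embryos had like values, and both replicate 2 embryos were lower. The log2 fold change was -0.11 (SE 0.37, 95% interval -0.96 to 0.73, edgeR adjusted p = 0.979). Xist, chosen after its values were seen, had 69.6 and 6.06 CPM in KO and 202 and 59.8 CPM in WT.

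Exons of 6 members overlap those of another gene. The overlap is on the opposite strand for Hnrnpu with Cox20 over 804 bases, Hnrnpd with Gm17092 over 385, Hnrnpk with Rmi1 over 330, Elavl1 with Ccl25 over 204 and Hnrnpl with Gm44702 over 32. Hnrnpm shares 1169 bases with March2 on the same strand. Smart-Seq libraries do not mark the strand of origin, so such reads cannot be assigned. Cox20 and Gm17092 had at most 6 counts in any library, while Rmi1 had 771 and 944 counts in KO and 621 and 666 in WT. March2 had 294 and 770 counts in KO and 274 and 365 in WT. Ccl25 had 343 and 357 counts in KO and 187 and 224 in WT.

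All 10 log2 fold changes were negative, where 52.3% of all genes tested had a negative value. Their median was -0.26 against -0.03 over all genes. Without Rbmx the other 9 ran from -0.66 to -0.03 with a median of -0.26. For 5 of these 9 the 95% interval lay within a log2 change of 1 either way, where this held for 12.6% of all genes. The width of an interval depends also on the counts of a gene, and genes of like counts were not set beside these. The KO embryos lay below the WT embryos without overlap for 5 of the 10, Rbmx, Hnrnpa1, Hnrnpd, Hnrnpl and Hnrnpm, where this held for 18.8% of all genes. None of the 10 lay above, where 19.4% of all genes did. The median was -0.05 without KO replicate 1 and -0.45 without KO replicate 2. The shift of the list was thus smallest when KO replicate 1 was left out, and Hnrnpa2b1, Hnrnpk, Hnrnpu, Hnrnpm and Elavl1 each had a positive value in at least 1 of the fits with a library left out.

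**Figure D3:**
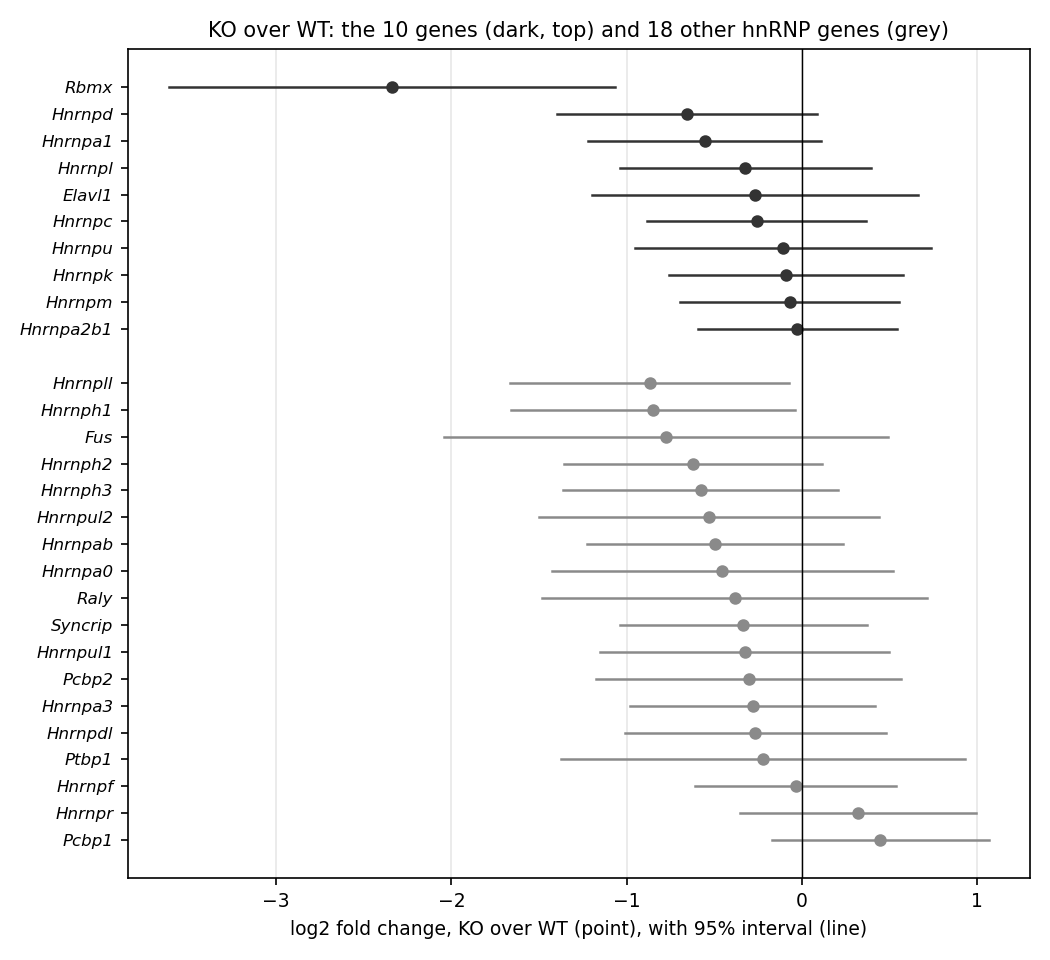
Log2 fold change of KO over WT (points) with 95% intervals from the edgeR test (lines) for the 10 genes (dark, top) and 18 other hnRNP genes (grey, below). The interval of Rbmx, -3.61 to -1.06, leaves out 0, those of the other 9 include it, and those of Hnrnpll and Hnrnph1 end just below 0.

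**Figure D4:**
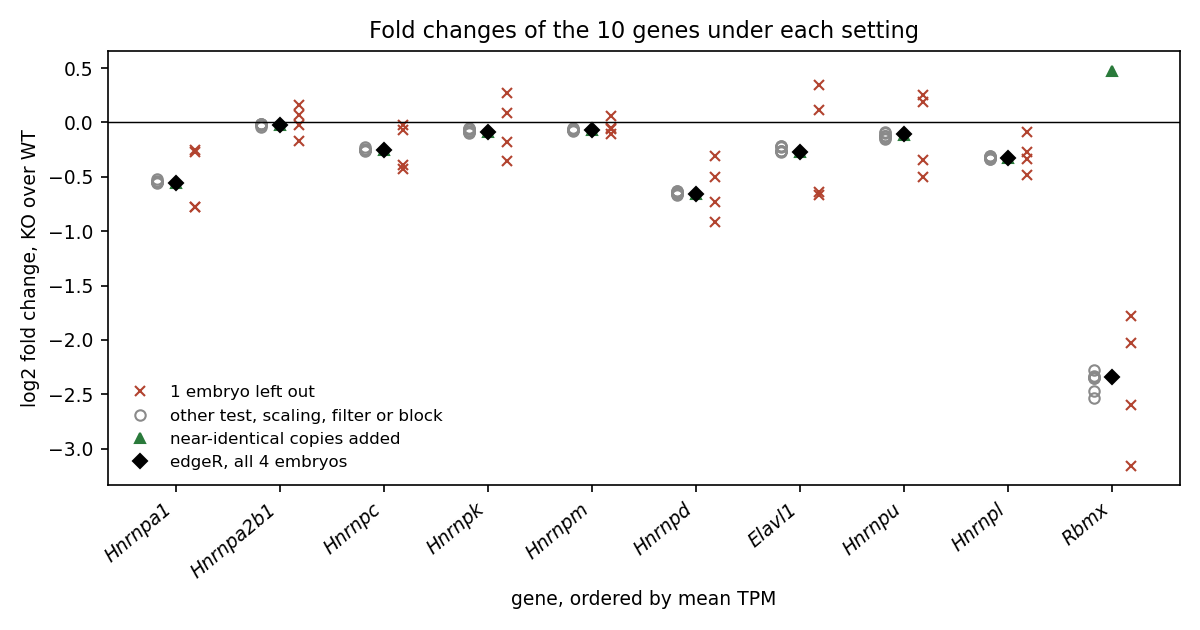
Log2 fold change of KO over WT for each of the 10 genes with all 4 embryos by edgeR (black), with another test, scaling, filter or block (grey circles), with counts of near-identical copies added (green triangles) and with 1 embryo left out (red crosses). Rbmx moved most when Rbmxl1 was added, to 0.48, and the other 9 genes moved most when an embryo was left out.

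For several members the embryos of 1 group differed more than the groups did. The mean difference within groups was larger than that between groups for 5 of the 10 genes, Hnrnpa2b1, Hnrnpc, Hnrnpk, Hnrnpu and Elavl1, where this held for 61.8% of all genes. From replicate 1 to replicate 2, Elavl1 differed by 0.68 in KO and 1.04 in WT on the log2 scale, and Hnrnpu by -0.82 in KO and -0.54 in WT. The sign of this difference was shared by both groups for 6 of the 10 genes, where 64.1% of all genes shared it. Rbmx was among the exceptions, with -1.43 in KO and 0.55 in WT. No label ties the replicate numbers to a litter or a day.

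**Figure D5:**
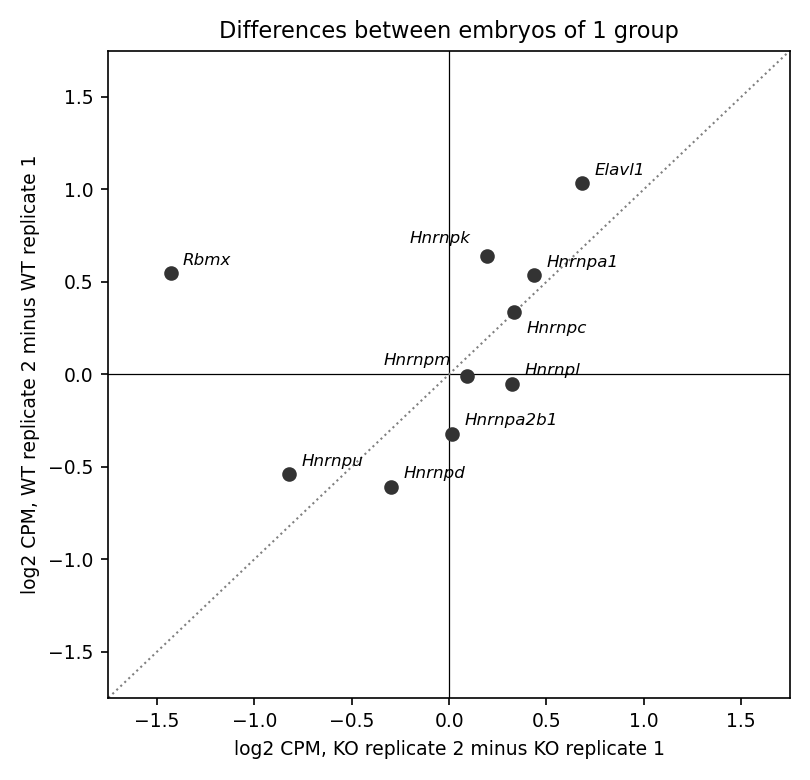
Difference in log2 CPM between the embryos of 1 group for each of the 10 genes, replicate 2 minus replicate 1, in KO on the x axis and in WT on the y axis, with equal differences on the dotted line. Elavl1, Hnrnpa1, Hnrnpc and Hnrnpk lie upper right and Hnrnpu and Hnrnpd lower left, while Rbmx stands alone at -1.43 and 0.55.

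Of 18 other hnRNP genes tested, 16 had a negative log2 fold change and 2 a positive one, where 52.3% of all genes tested had a negative value. The median of the 18 was -0.36, and 0 passed by edgeR, DESeq2 or limma-voom. Without WT replicate 1 this median was -0.09. Hnrnpll, a regulator of exon choice in lymphocytes, had 71.9 and 49.7 CPM in KO and 119 and 103 CPM in WT (log2 fold change -0.87, SE 0.35, unadjusted edgeR p of 0.036). Hnrnph1, which binds runs of guanine, had 360 and 205 CPM in KO and 592 and 427 CPM in WT (-0.85, SE 0.35, unadjusted edgeR p of 0.0421). Its relatives Hnrnph2 and Hnrnph3 had -0.62 (SE 0.32) and -0.58 (SE 0.34), also with no overlap between the groups. In all, KO embryos lay below WT embryos without overlap for 6 of the 18 genes and above for 2. Over all genes these shares were 18.8% and 19.4%. Pcbp1, a binder of cytosine-rich RNA and the most abundant of the 18 per length at a mean of 899 TPM, had 616 and 783 CPM in KO and 494 and 532 CPM in WT (0.45, SE 0.27). The 18 genes took 0.431% and 0.389% of counts in KO and 0.530% and 0.409% in WT, so that the groups overlapped. Replicate 2 differed from replicate 1 in the same direction in both groups for 17 of the 18, where this held for 64.1% of all genes.

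Relatives of Elavl1 and other binders of AU-rich elements had a median of -0.25 over 9 genes, with 0 called by any of the 3 tests. Of the 9, 6 were negative and 3 positive, where 52.3% of all genes were negative. Tia1, a translational silencer of stress granules, had 28.0 and 25.5 CPM in KO and 47.0 and 34.8 CPM in WT (log2 fold change -0.61, SE 0.37). Elavl2, a close relative of Elavl1, and the decay factor Khsrp had -0.61 (SE 0.47) and -0.30 (SE 0.34). Elavl4, a neuronal relative, was near its detection limit with 33 and 19 counts in KO and 12 and 4 in WT. Zfp36l2, a decay factor and the most abundant of the 9 per length, had 144 and 75.3 CPM in KO and 123 and 74.0 CPM in WT.

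Microprocessor genes, to which Hnrnpa2b1 was linked in human cells, had a median of -0.04 over 5 genes with 0 called. Dgcr8, the subunit that holds primary microRNAs, had 28.8 and 11.6 CPM in KO and 35.5 and 36.1 CPM in WT (log2 fold change -0.82, SE 0.48). The KO embryos lay below the WT embryos, and KO replicate 2 was the lowest. Drosha, the nuclease, had a log2 fold change of 0.11 (SE 0.34), and the helicases Ddx5 and Ddx17 had -0.16 (SE 0.28) and -0.04 (SE 0.37). Other proteins whose binding was proposed to depend on m6A had a median of 0.03 over 6 genes with 0 called. Fxr1 and Fmr1 of the fragile X family had -0.40 (SE 0.34) and -0.39 (SE 0.41). G3bp2 and G3bp1, stress granule proteins, had 0.34 (SE 0.28) and 0.08 (SE 0.30), and Prrc2a 0.15 (SE 0.39).

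In the annotation, 7 of the 10 members have a transcript classed as a target of nonsense-mediated decay, the route by which several hnRNPs limit their own level, against 27.7% of tested protein-coding genes. The counts per gene do not separate these transcripts from coding ones. The letters GGACT, a core sequence at which m6A is often written, occurred in the representative messenger RNA of 9 of the 10 members and of 90.8% of tested coding genes. Their density ran from 0 per kilobase in Hnrnpa2b1 to 1.90 in Rbmx, with a median of 0.609 against 1.06 over the tested coding genes. The representative was the transcript with the longest coding sequence, and other transcripts of a gene were not searched. That of Hnrnpa2b1 has 1728 bases, where the summed exons of the gene have 6584. Methylation was not measured in these libraries, and a match of letters is no evidence of a methylated site.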

How the data were processed

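Expression was measured in 4 libraries of 1 whole embryo each, 2 KO and 2 WT. The authors deposited raw, whole-number counts of reads per gene. Per the submitters' processing notes, TopHat, Cufflinks and mm10 were used, with no version or role stated. The counting program, strand setting and annotation were not given in the sources used here. Of 47885 rows, 46574 matched GENCODE M21 on mm10, which gave symbols, coordinates, exon lengths and transcript sequences. Another 816 rows were models without an Ensembl identifier and stayed in the library sizes and tests.

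KO was compared with WT by edgeR 4.0.16 (R 4.3.3) using the robust quasi-likelihood F test after TMM scaling and filterByExpr (a count of at least 10 and a total of at least 15), adjusted after Benjamini and Hochberg over the 15563 genes tested, with a threshold of 0.05. CPM used the TMM-scaled library sizes. The SE comes from the F statistic (log2 fold change over its square root), and 95% intervals use the fit's degrees of freedom. The embryos are separate animals. The edgeR p-values set the difference between the groups against the spread within groups of these 4, moderated across all genes tested. The fit was first run on simulated counts with known fold changes, as a check of their sign and size. This run gives no power or error rate for the real data.

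Alternatives were DESeq2 1.42.0, limma-voom (limma 3.58.1), RLE scaling, library totals, no filter, at least 50 counts in 2 libraries, each library left out, a replicate block, and counts of near-identical copies added to each member. Protein features were not used here. Copies were annotated genes with at least 90% identity to the coding sequence over at least 50% of it (blastn 2.17.0, GENCODE transcripts); copies outside the annotation were not searched. Stretches of 150 bases, the read length, were matched exactly on both strands, and shown pairs were aligned with Biopython 1.88.

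The members and lists were chosen with earlier results of these data known. The genes named were all 10 members, up to 4 genes per other list with the smallest unadjusted p plus the most abundant per length, the copy of each member with the most counts, and Mettl14. Xist, the sex chromosome genes and Rbmxl2 were added after their values were seen.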

Additional observations from a re-analysis of the deposited data

How the results depend on the processing

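As in the main test, 0 genes passed with limma-voom, RLE scaling, library totals, a minimum of 50 counts in 2 libraries, or copies added. By DESeq2 141 genes were higher and 89 lower in KO, and with no filter on low counts 157 and 101. With an embryo omitted, 14 to 133 were higher and 1 to 209 lower. The group with 1 library left is assumed to vary like the other. The cause was not tested. Same-numbered embryos share only a number, and the KO replicate difference and the WT one had a correlation of 0.329 over genes. With the replicate block 52 genes were higher and 19 lower, with no member among them (Rbmx at -2.47, adjusted p = 0.0924).

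Of 33 genes named, 19 kept their sign in every one of up to 12 alternatives. Rbmx turned to 0.48 with copies added, since Rbmxl1 holds most of that sum, and otherwise ran from -3.16 to -1.78. With an embryo omitted the sign of these changed, the cause of which was not tested: Hnrnpa2b1 (-0.17 to 0.16), Hnrnpk (-0.36 to 0.27), Hnrnpu (-0.50 to 0.25), Hnrnpm (-0.11 to 0.059), Elavl1 (-0.67 to 0.35), Zfp36l2 (-0.31 to 0.57), Ddx5 (-0.30 to 0.021), Drosha (-0.11 to 0.39), Ddx17 (-0.34 to 0.37), Fmr1 (-0.91 to 0.050), Prrc2a (-0.18 to 0.49), G3bp1 (-0.15 to 0.36) and Gm12696 (-0.25 to 0.13). The median of the 10 members ran from -0.45 to -0.055, that of the other hnRNP genes from -0.48 to -0.089 and that of the Microprocessor genes from -0.30 to 0.31. The median of the AU-rich element binders ran from -0.45 to 0.09 and that of the other m6A-sensitive binders from -0.12 to 0.25. For the summed share of the 10 members, KO minus WT ran from -0.138 to -0.0987 percentage points.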

Other observations

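Rbmxl2, a further retrogene of the Rbmx family that is known as a testis gene, was also counted in these embryos. It had 15.5 and 42.7 CPM in the KO embryos and 27.6 and 24.6 CPM in the WT embryos, with the WT values between those of the KO embryos. Its log2 fold change was 0.16 (SE 0.51, edgeR adjusted p = 0.977). In KO replicate 2 it had 1191 counts where Rbmx had 114.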
